A study of Mus musculus with 9 samples.

Results

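Germ cell preparations from mice fed a vitamin A-deficient (VAD) diet for 18 weeks were compared with preparations from mice fed a control diet. The comparison took 6 of the 9 arrays of the series, all 3 labelled VAD at 18 weeks and all 3 labelled control, over 45037 probe sets that are not spike-in controls. Both groups were adult Balb/C mice with no other genetic or drug treatment in the labels, and the age of the control mice is not given. Each preparation pooled the testes of 2 mice, which were digested with enzymes, plated overnight and separated by sedimentation through an albumin gradient, and the stated purity of spermatogonia was above 90%. From 100 ng of total RNA, labelled RNA was made in an Affymetrix protocol with a second amplification cycle. Vitamin A status was checked by the submitters from retinol-binding protein in serum, and those measurements were not used here. The labels do not say that the arrays of a group came from separate preparations, so the p-values measure only the spread between these samples, which may be technical, and with so few arrays every value is imprecise.

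The body converts vitamin A to retinoic acid, which is made in the testis, binds nuclear receptors in Sertoli and germ cells, and starts the differentiation of spermatogonia and their entry into meiosis. Rodents kept without it lose the later germ cells over time, while undifferentiated spermatogonia remain beside the Sertoli cells, the somatic cells that line the tubule, nurse the germ cells and build the blood-testis barrier with their junctions. Dispersed germ cell preparations can carry other testis cells, and in RNA from such a mixture a change in the number of cells of a type and a change in RNA per cell cannot be told apart.

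The labelled cell type was compared with its markers. Of 24 undifferentiated spermatogonia markers with a named probe set, 13 passed the filter on low signals, and Ret and Sall4 were among those that did not. The filter kept 27022 of all 45037 probe sets, and a gene passed if any of its probe sets did. Kit, the receptor that marks differentiating spermatogonia, had log2 signals of 2.86, 3.65 and 2.51 in control replicates 1, 2 and 3. All 22 pachytene spermatocyte genes and all 27 spermatid genes with a named probe set passed, and Prm1, the protamine of sperm chromatin, stood at 12.64, 12.16 and 10.25 in the controls and 11.61, 12.47 and 12.48 at 18 weeks. The listed later germ cell transcripts thus passed in full. Whether the undifferentiated spermatogonia markers passed less often than genes in general was not tested. Kit and Prm1 are read from different probe sets, so their levels do not measure their relative expression.

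Control replicate 3 stood apart from the other arrays. Its trimmed mean signal was 22.9, against 58.1 and 59.6 in control replicates 1 and 2 and 55.2 to 85.1 at 18 weeks. After quantile normalization it correlated with the other controls at 0.796 to 0.802 across probe sets, whereas control replicates 1 and 2 correlated at 0.962, the 18-week arrays among themselves at 0.962 to 0.964, and the 18-week arrays with control replicates 1 and 2 at 0.945 to 0.953. It also carried 2527 units of summed macrophage marker signal, against 153 to 247 on the other 5 arrays. Most of that sum came from 1 of the 9 markers, Laptm5, at a log2 signal of 11.11 on this array, so it does not measure macrophage content. The ratio of 3′ to 5′ signal for Gapdh was 3.16, 3.36 and 4.36 in the controls and 3.08, 3.94 and 4.11 at 18 weeks. A VAD 25-week array, replicate 3, was as dim, with a trimmed mean of 23.2. Results are therefore given from a fit of 7 arrays without this dim pair, so that control replicate 3 is left out, and the values with it are set beside them. VAD 25-week replicates 1 and 2 enter the 7-array fit only for the estimate of the spread. These 2 arrays were brighter, with trimmed means of 185 and 143, and correlated with each other at 0.981. Their median signal of poly-A spike-in controls was 131 and 160, against 3.99 to 7.15 on the control and 18-week arrays. Their part in the pooled spread was not tested, and the counts without them are given below.

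Promoters of 4 genes are shown because the results turn on them: a junction gene and a hormone receptor gene that rose, a germ cell surface gene that rose with little spread, and the Wnt receptor gene with the largest decrease among genes whose arrays did not overlap between groups. They are RefSeq sequences of assembly GRCm38.p6, the 250 bases before the annotated start, written 5′ to 3′ on the strand of the gene. Capitals mark matches, on either strand, to AGGTCA, the core element of retinoid and related nuclear receptors, to TGANTCA of AP1 factors, to AGATAA of GATA factors and to ACAAAG of SOX factors.
Gja1, chr10:56377050-56377299, plus strand, TGANTCA and AGATAA matches: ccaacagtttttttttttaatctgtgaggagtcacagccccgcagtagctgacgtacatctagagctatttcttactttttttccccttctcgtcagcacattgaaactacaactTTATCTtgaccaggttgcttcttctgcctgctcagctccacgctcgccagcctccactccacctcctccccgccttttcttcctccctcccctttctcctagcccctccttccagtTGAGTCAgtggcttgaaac
Amhr2, chr15:102445117-102445366, plus strand, AGGTCA match: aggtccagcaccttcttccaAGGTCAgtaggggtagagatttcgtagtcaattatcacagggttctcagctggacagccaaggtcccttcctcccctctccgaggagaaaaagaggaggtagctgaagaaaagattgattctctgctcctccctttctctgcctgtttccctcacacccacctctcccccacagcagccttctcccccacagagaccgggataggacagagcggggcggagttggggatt
Tex101, chr7:24672051-24672300, minus strand, TGANTCA match: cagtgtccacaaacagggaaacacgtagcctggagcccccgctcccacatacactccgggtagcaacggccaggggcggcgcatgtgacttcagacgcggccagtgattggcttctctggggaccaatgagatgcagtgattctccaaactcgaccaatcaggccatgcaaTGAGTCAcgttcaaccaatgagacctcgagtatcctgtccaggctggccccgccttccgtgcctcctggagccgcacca
Ror2, chr13:53286125-53286374, minus strand, TGANTCA and ACAAAG matches: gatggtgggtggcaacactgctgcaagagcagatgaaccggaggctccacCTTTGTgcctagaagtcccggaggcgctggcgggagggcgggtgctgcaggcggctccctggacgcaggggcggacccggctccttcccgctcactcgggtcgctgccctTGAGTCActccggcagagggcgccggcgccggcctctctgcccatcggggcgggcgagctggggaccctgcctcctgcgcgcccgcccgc
The AGGTCA core lay in 13.8% of all 27025 RefSeq promoters of this length, in 11.7% of the 10949 of measured named genes, in 10.6% of the 387 of genes that rose and in 16.1% of the 93 of genes that fell. The corresponding shares for TGANTCA were 6.87%, 4.56%, 2.33% and 5.38%, those for AGATAA 10.3%, 6.22%, 5.43% and 10.8%, and those for ACAAAG 16.5%, 12.9%, 11.4% and 11.8%. These are counts of letters in a short window, and no binding was measured.

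Increases outnumbered decreases at 18 weeks. Without the dim arrays, limma called 1078 of 27022 probe sets (3.99%) at an adjusted p under 0.05, of which 860 were higher (3.18%) and 218 lower (0.807%). Among 13616 named genes, each read from 1 probe set, 590 passed (4.33%), with 472 higher (3.47%) and 118 lower (0.867%). The increases had a median log2 fold change of 0.95 and ran from 0.44 to 3.83, and the decreases had a median of -0.72 and ran from -2.10 to -0.45. By a log2 change of 1 or more, 226 genes were higher and 20 lower. With all 9 arrays and group as the sole term the same test called 0 probe sets (0%), with 1958 at an unadjusted p under 0.05 and a smallest adjusted p of 0.245, and with a block for the dim pair it called 396 (1.47%), of which 360 were higher (1.33%) and 36 lower (0.133%), and 395 of these were among the 1078. The count rests on leaving out both dim arrays: with control replicate 3 alone left out and VAD 25-week replicate 3 kept, 0 probe sets passed in limma (1678 had an unadjusted p under 0.05, and the smallest adjusted p was 0.298). With the 25-week arrays also left out, so that 5 arrays remained, 360 passed, 325 higher and 35 lower. From the 7-array fit, removing control replicate 1 left 195 probe sets (147 of them among the 1078), removing control replicate 2 left 267 (205), and removing VAD replicates 1, 2 and 3 gave 1284, 645 and 1014.

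The direction split moved with the scaling. On the deposited scale 2203 probe sets were higher and 25 lower, and with each array centred on its median the counts were 737 and 295. The median log2 change over all named genes was -0.02 after quantile normalization and 0.32 on the deposited scale, and the changes below are relative to the first. With control replicate 3 included most signs held: 469 of the 472 increases kept a positive log2 fold change in the 9-array fit, and 104 of the 118 decreases kept a negative one. All 3 VAD arrays lay above all 3 controls for 353 of the 472 higher genes and below them for 53 of the 118 lower genes, while over all named genes 1607 (11.8%) lay above and 1118 (8.21%) below.

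**Figure D1:**
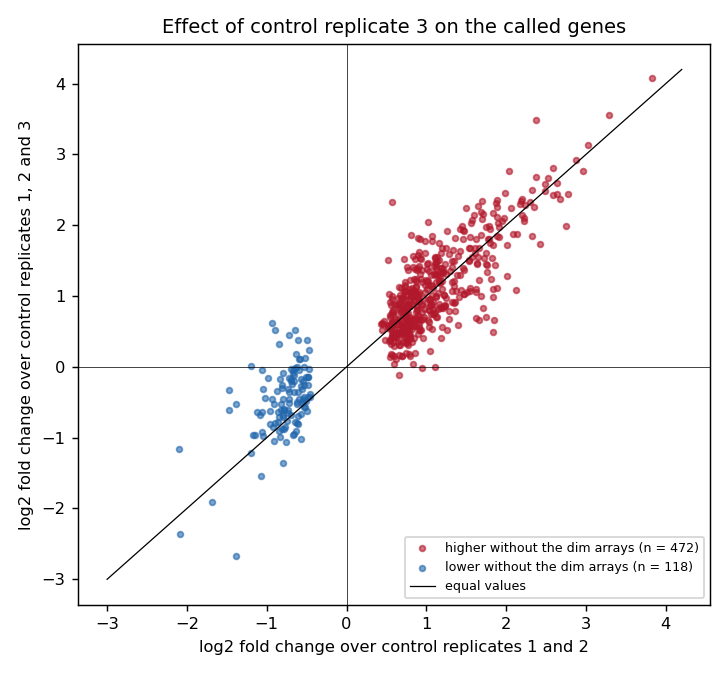
Log2 fold changes of the 590 named genes that passed without the dim arrays, over control replicates 1 and 2 (horizontal) and over all 3 control replicates (vertical), with 1 point a gene and a line of equal values. Of the increases 469 of 472 stay above 0 on the vertical axis, and of the decreases 104 of 118 stay below it.

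The largest increases included 5 of the Sertoli cell markers described below. The 15 largest among the genes whose arrays did not overlap between groups ran from log2 2.43 to 3.83, and 14 of them were highest in VAD replicate 2. Tmem255a, a transmembrane protein gene, led with 5.64, 7.40 and 6.44 at 18 weeks against 1.94, 3.38 and 1.92 in the controls, a rise of 3.83 ± 0.49 (SE, n = 3 VAD and 2 control arrays, here and below; limma adjusted p = 0.00322). Its value with all 3 controls was 4.08, and all 3 of its probe sets were called. A signal of 0 lies at 1.7 on this scale, so controls near 2 are close to its bottom, background cannot be told from low expression there, and the differences of such genes are shrunken and not exact folds. Gpm6b, a membrane glycoprotein gene, rose by 2.96 ± 0.37 and Reep1, which shapes the endoplasmic reticulum, by 2.63 ± 0.35. Bhmt, which remethylates homocysteine with betaine, rose by 2.49 ± 0.58 from controls between 4.36 and 4.89 to 5.55, 8.28 and 7.62, a spread of 2.73 among the VAD arrays. Itgb5, an integrin subunit, rose by 2.77 ± 0.45 in the probe set with the highest mean, and its other 3 probe sets did not pass.

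Mphosph6, an RNA exosome cofactor, had the smallest error of the 15. It stood at 2.93, 2.73 and 3.73 in the controls and 5.40, 5.40 and 5.72 at 18 weeks, a rise of 2.67 ± 0.23 (limma adjusted p = 0.000492). The remaining members were Mmd2 (2.63 ± 0.44), Qpct (2.58 ± 0.39), 4933402E13Rik (2.49 ± 0.33) and Axl (2.43 ± 0.37), a receptor tyrosine kinase that clears apoptotic cells. Of the 15 increases, 8 kept an adjusted p under 0.05 whichever array was left out, 10 without control replicate 1, 9 without control replicate 2, and 15, 14 and 14 without VAD replicates 1, 2 and 3. Bhmt lost it without control replicate 1 (adjusted p = 0.233), control replicate 2 (0.145) and VAD replicates 2 (0.0765) and 3 (0.0839), Itgb5 lost it without either control (0.0668 and 0.0707), as did Mmd2 (0.0715 and 0.0726), and the others that lost it are given with their groups below. A fit that leaves out 1 of the controls has 1 control array, which is assumed to vary like the other groups. On the deposited scale the 15 ran from 2.57 to 4.16.

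**Figure D2:**
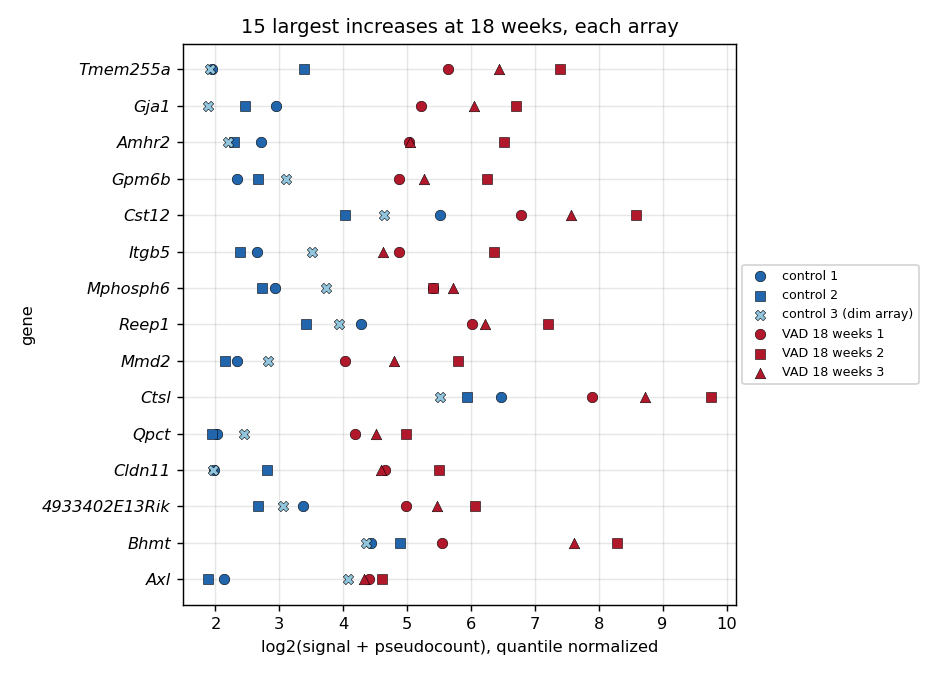
Normalized log2 signal of the 15 largest increases on each array, with controls in blue, the dim control replicate 3 as a pale cross and VAD 18-week arrays in red. All red points lie to the right of all blue ones for each gene, and VAD replicate 2 (squares) is the rightmost in 14 of 15.

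Many Sertoli cell markers were higher at 18 weeks. Of 21 measured markers of 27 listed, 9 rose (42.9%, against 3.47% of all named genes) and 1 fell (4.76%, against 0.867%). Their median was 1.17, and 19 values were positive, against 6542 of 13616 over all named genes. On the deposited scale their median was 1.62, which is 1.30 above that of all genes. The markers that rose were Gja1, Amhr2, Cst12, Ctsl, Cldn11, Clu, Dhh, Aard and Defb19, the last pair named after their values were seen. With all 9 arrays none passed, although 1.37 was the median, and with the dim block 8 passed. Sox9, Amh and Gdnf were below the filter, and Trf and Rhox8 had no probe set with that name here. The filter used the mean over all 9 arrays, of which 3 were controls. Genes low in the controls, such as Gja1, Amhr2 and Cldn11, could pass it through the VAD arrays, which favours increases in the counts. The same filter applied to all named genes.

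Gja1 encodes connexin 43, the gap junction protein between Sertoli cells and between Sertoli and germ cells. It stood at 2.94, 2.46 and 1.89 in the controls and 5.21, 6.70 and 6.04 at 18 weeks, so the groups lay far apart. The controls were near the bottom of the scale, and over them the difference was 3.28 ± 0.37 (limma adjusted p = 0.00179), and 3.55 with all 3 controls, and all 5 of its probe sets were called. Amhr2, the receptor for anti-Müllerian hormone, stood at 2.71, 2.29 and 2.19 against 5.03, 6.52 and 5.04, a rise of 3.03 ± 0.42 (limma adjusted p = 0.00538) in which all 3 probe sets passed. Its adjusted p was 0.0505 without control replicate 2, and Gja1 kept its call without any of the arrays.

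Cldn11, the main claudin of Sertoli tight junctions, stood at 1.97, 2.81 and 1.96 in the controls and 4.65, 5.50 and 4.59 at 18 weeks. Its rise was 2.53 ± 0.38 (limma adjusted p = 0.00749, and 0.0643 without control replicate 1). Clu, an abundant secreted chaperone of Sertoli cells, stood at 5.37, 5.45 and 2.07 against 7.19, 8.64 and 7.51. The rise was 2.37 ± 0.33 over control replicates 1 and 2 and 3.48 over all controls, because control replicate 3 lay far below the others, and its adjusted p of 0.00517 became 0.0604 without control replicate 1. Defb19, a beta-defensin, rose by 2.06 ± 0.36 and Aard by 2.33 ± 0.42, and the adjusted p of each reached 0.114 with 1 array left out. Control replicate 3, at 6.50, overlapped VAD replicate 1, at 6.49, for Aard.

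Members of the list that did not pass were of mixed size. Inha and Inhbb, the inhibin subunits of Sertoli cells, were at 1.04 ± 0.31 and 1.17 ± 0.39, Rhox5, an androgen-dependent homeobox gene, at 1.12 ± 0.32, and Wt1, the Sertoli transcription factor, at 1.02 ± 0.36 (limma adjusted p between 0.0725 and 0.134). Fshr, the receptor for follicle-stimulating hormone, was at 0.45 ± 0.30, and Gata4 at -0.20 ± 0.33. Kitl, the ligand of Kit made by Sertoli cells, fell by 1.47 ± 0.29 in 1 probe set (limma adjusted p = 0.0216) and was at 0.06 in its other one. The first stood at 5.93, 5.90 and 3.34 in the controls and 4.15, 5.05 and 4.15 at 18 weeks, so that control replicate 3 lay below every VAD array, its value with all controls was -0.61, and its adjusted p was 0.136 and 0.111 without control replicate 1 and 2.

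The summed signal of the 21 Sertoli markers was 593, 468 and 407 in the controls and 1113, 3310 and 1660 at 18 weeks. VAD replicate 2 had the highest sum and was also the highest array for all 9 raised markers, whose range among the VAD arrays had a median of 1.49 and ran from 0.78 to 1.97. The share of Sertoli cells in the preparations was not measured, and their part in these increases was not tested.

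Other somatic lists moved less. Called higher were 16.7% of the Leydig markers and 11.1% of the macrophage and leukocyte markers, each 1 gene, against 3.47% of all named genes. Of 6 measured Leydig cell markers, which make androgen between the tubules, Hsd3b1, a steroid dehydrogenase, rose by 1.90 ± 0.35, from 3.61, 3.92 and 3.36 to 4.97, 6.38 and 5.62 (limma adjusted p = 0.0167, and 0.134 and 0.0734 without control replicate 1 and 2). Cyp17a1, which makes androgen precursors, was at 1.58 ± 0.47 with 6.14, 8.27 and 7.74 at 18 weeks, of which the first is close to the controls at 6.06 and 5.54. Star, the cholesterol importer, was at -0.30 ± 0.35, and the median of the list was 0.59. The summed Leydig signal ran from 650 to 1900 in the controls and from 1743 to 2493 at 18 weeks, and Insl3 and Lhcgr had no probe set with that name here.

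Of 9 macrophage and leukocyte markers, Mrc1, the macrophage mannose receptor, rose by 1.45 ± 0.31 (limma adjusted p = 0.0286, and 0.134 and 0.144 without control replicate 1 and 2), and the median was 0.09. Laptm5, a leukocyte lysosomal gene, stood at 4.85, 4.10 and 11.11 in the controls and 4.83 to 5.76 at 18 weeks, so control replicate 3 alone was high. No marker of peritubular myoid cells (7 measured, median 0.06) or of endothelial cells (7 measured, median -0.15) passed in either direction. The myoid and endothelial medians were 0.52 and 0.28 on the deposited scale, against 0.32 for all genes.

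Of 18 measured junction genes of the blood-testis barrier 3 rose (16.7%, against 3.47% of all named genes) and 0 fell, with a median of 0.13. All VAD arrays lay above all controls for 6 of them, against 11.8% of all named genes. Gja1 and Cldn11, which rose, are also counted among the Sertoli markers. Beside Gja1 and Cldn11, Ctnnb1, the adhesion and Wnt protein beta-catenin, rose by 1.06 ± 0.19 in 1 probe set (limma adjusted p = 0.0143, and 0.0971 and 0.105 without control replicate 1 and 2) and stood at -0.02 in its other one. Cgn, a tight junction adaptor, was at 0.86 ± 0.27, Tjp1, its scaffold partner, at 0.29 ± 0.16 and Cdh2, N-cadherin, at -0.35 ± 0.18, and none of these passed. F11r, a junctional adhesion molecule, was at 0.68 ± 0.28 and Nectin2 at 0.73 ± 0.28, also without passing. Of the 5 probe sets of Jam2, another junctional adhesion molecule, 2 were called lower, while the representative one, at -0.61 ± 0.20 and below all controls, was not.

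Of 17 measured cathepsin and cystatin genes, which encode proteases and their inhibitors, 3 rose (17.6%, against 3.47% of all named genes) and 0 fell, with a median of 0.14. Cst12, a cystatin of Sertoli cells, stood at 5.51, 4.02 and 4.64 in the controls and 6.78, 8.59 and 7.56 at 18 weeks, a rise of 2.88 ± 0.48 (limma adjusted p = 0.0112, and 0.096 without control replicate 2). Ctsl, a cysteine protease that Sertoli cells secrete, stood at 6.47, 5.94 and 5.52 against 7.90, 9.75 and 8.72, a rise of 2.58 ± 0.39 (limma adjusted p = 0.00749, and 0.0508 and 0.077 without control replicate 1 and 2). Lgmn, an asparaginyl endopeptidase of lysosomes, rose by 2.32 ± 0.42 (limma adjusted p = 0.0162, and 0.121 without control replicate 1). The widely expressed Ctsb and Ctsd were at 0.14 ± 0.46 and -0.16 ± 0.26 and did not pass. Cst12 and Ctsl are also counted among the Sertoli markers. Cstb, at -0.87, had 1 of its 2 probe sets called lower, and not its representative one.

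Of 31 measured genes of the TGF-beta family and gonadal hormone signalling 3 rose (9.68%, against 3.47% of all named genes) and 1 fell (3.23%, against 0.867%), with a median of 0.18. Amhr2, Dhh and Ptch1 rose and Kitl fell, and all of these but Ptch1 are also counted among the Sertoli markers. Dhh, the Hedgehog ligand that Sertoli cells send to Leydig and myoid cells, stood at 3.16, 3.51 and 1.99 in the controls and 4.83, 5.54 and 4.76 at 18 weeks, a rise of 1.71 ± 0.31 (limma adjusted p = 0.0162, and 0.109 and 0.0568 without control replicate 1 and 2). Ptch1, its receptor and a target of the pathway, stood at 2.67, 2.90 and 3.18 against 3.97, 4.4 and 4.03, a rise of 1.35 ± 0.33 (limma adjusted p = 0.0451). Its adjusted p was 0.183 and 0.113 without control replicate 1 and 2, and 0.0515, 0.104 and 0.0672 without VAD replicates 1, 2 and 3. Gli1, the transcription factor induced by the pathway, was at 1.5 ± 0.42 without passing (limma adjusted p = 0.0712), and at 4.44 control replicate 3 lay above all VAD arrays.

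By their representative probe sets, the named germ cell genes that rose had smaller changes than the raised Sertoli markers. Tex101, a surface glycoprotein of spermatocytes and later germ cells, stood at 8.34, 8.35 and 6.96 in the controls and 9.64, 9.84 and 9.64 at 18 weeks. Its rise was 1.36 ± 0.14 (limma adjusted p = 0.00106), or 2.56-fold, it was 1.82 with all controls, and it kept its call without any of the arrays. Id4, a transcriptional inhibitor of the stem cell pool, stood at 8.0, 8.23 and 8.12 against 9.15, 9.06 and 8.87, a rise of 0.91 ± 0.14 (limma adjusted p = 0.00761, and 0.0924 without control replicate 1). No VAD array overlapped a control for Id4, and control replicate 3 lay between the other controls.

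Id4 was the sole called member of 13 measured undifferentiated spermatogonia genes (7.69% higher, against 3.47% of all named genes), whose median was -0.05. Gfra1, the receptor for the niche factor GDNF, was at -0.30 ± 0.24, Zbtb16, a stem cell repressor, at -0.05 ± 0.42, Etv5, a GDNF-responsive factor, at 0.64 ± 0.41 and Utf1 at -1.10 ± 0.48. The other probe set of Gfra1 was at -1.57 and did not pass (limma adjusted p = 0.0602). Of 14 differentiating spermatogonia genes Tex101 and Dmrt1 rose (14.3%, against 3.47% of all named genes) and Dmrtb1 fell (7.14%, against 0.867%). The median was 0.17, and Tex101 is also counted among the pachytene spermatocyte genes below. Dmrt1, which restrains entry into meiosis, stood at 4.15 and 4.35 in control replicates 1 and 2 and between 5.07 and 5.36 at 18 weeks, a rise of 0.96 ± 0.22, but at 5.91 in control replicate 3. Dmrtb1, which acts at the same transition, fell by 0.48 ± 0.11, from 10.69 and 10.56 to between 10.10 and 10.19, and control replicate 3 was lower still at 9.31. Both lost their call without control replicate 1, with an adjusted p of 0.179 for Dmrt1 and 0.243 for Dmrtb1, without control replicate 2, with 0.0977 and 0.119, and without VAD replicate 2, with 0.0701 and 0.0801. Dmrt1 also lost it without VAD replicate 3, at 0.0711.

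Kit stood at 4.35, 4.51 and 4.09 at 18 weeks, above all controls, with a difference of 1.06 ± 0.33 that did not pass (limma adjusted p = 0.0972). Stra8, the retinoic acid target needed to enter meiosis, stood at 4.59, 3.15 and 5.70 in the controls and 2.91, 4.31 and 2.66 at 18 weeks. Its difference was -0.58 ± 0.56 (limma adjusted p = 0.593), and the groups overlapped.

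Of 23 measured meiotic prophase genes 4 rose (17.4%, against 3.47% of all named genes) and 0 fell, with a median of 0.11, which was -0.06 after median centring. Of these 4, Sycp3 alone passed with the dim block, Tex12 alone with no trend in the variance, and none with all 9 arrays. Sycp3, an axial element protein of the synaptonemal complex, which joins paired chromosomes in meiosis, stood at 10.39, 10.49 and 9.33 in the controls and 11.40, 11.19 and 11.34 at 18 weeks, a rise of 0.87 ± 0.11 (limma adjusted p = 0.00271). Sycp2, its axial partner, stood at 9.56, 9.64 and 9.09 against 10.65, 10.47 and 10.64, a rise of 0.99 ± 0.11 (limma adjusted p = 0.00161). Tex12, a central element protein, rose by 1.12 ± 0.15, and these 3 kept their calls whichever array was left out. Mlh3, a crossover factor, rose by 0.72 ± 0.16, and its adjusted p of 0.032 became 0.141, 0.173 and 0.0503 without control replicate 1, control replicate 2 and VAD replicate 2. The other measured proteins of the complex did not pass, with Sycp1 at -0.06 ± 0.14, Syce1 at -0.20 ± 0.11, Syce2 at -0.06 ± 0.18 and Syce3 at 0.16 ± 0.15. Outside it, Hormad1 (0.04 ± 0.15), Spo11 (0.44 ± 0.17) and Dmc1 (0.24 ± 0.28) did not pass either, nor did Prdm9 (-1.10 ± 0.48).

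The piRNA pathway, which silences transposons in germ cells through small RNAs, had 6 of 17 measured genes higher (35.3%, against 3.47% of all named genes) and 0 lower, with a median of 0.15. Piwil2, a Piwi protein loaded with piRNAs, stood at 8.80, 8.91 and 9.56 in the controls and 9.92, 9.84 and 9.91 at 18 weeks, a rise of 1.04 ± 0.11 (limma adjusted p = 0.00151). Piwil1, its pachytene counterpart, stood at 8.85, 8.82 and 8.53 against 9.74, 9.71 and 9.71, a rise of 0.88 ± 0.11 (limma adjusted p = 0.00355). Both kept their calls whichever array was left out. Asz1 (0.66 ± 0.15) and Tdrd9 (0.64 ± 0.14), which act in piRNA biogenesis and transposon silencing, also rose, as did Tdrkh (0.81 ± 0.19) and Pld6 (0.79 ± 0.20), named after their values were seen. The other probe set of Asz1 was at -0.03 and did not pass. Without control replicate 1 the adjusted p was 0.223 for Asz1 and 0.21 for Tdrd9, without control replicate 2 it was 0.119 and 0.0939, and for Asz1 it was 0.0749 and 0.0515 without VAD replicates 2 and 3. With the array whose removal raised it most, the adjusted p was 0.252 for Tdrkh and 0.286 for Pld6. Mael (-0.06 ± 0.11), Tdrd1 (-0.08 ± 0.20) and Mov10l1 (0.15 ± 0.14) did not pass.

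All 21 measured Sertoli markers were highest in VAD replicate 2 among the VAD arrays, against 3934 of 13616 named genes, 4 of 23 meiotic prophase genes and 2 of 17 piRNA genes. The same array was the highest for 5 of 6 Leydig, 5 of 7 peritubular myoid, 6 of 9 macrophage and leukocyte and 4 of 7 endothelial markers. It was also the highest for 13 of 19 immediate early genes and 14 of 27 spermatid genes, so the peak was not particular to Sertoli markers. The median range among the VAD arrays was 1.28 for these Sertoli markers, 0.35 for the meiotic prophase genes, 0.29 for the piRNA genes and 0.47 over all named genes. The mean log2 signal of the 3 lists per array ran from 3.82 to 6.43, from 6.66 to 7.64 and from 8.34 to 8.86, and the part of signal level in these ranges was not tested. For the called genes the range was 0.78 to 1.97 for the 9 raised Sertoli markers, 0.17 to 0.21 for the 4 raised meiotic prophase genes and 0.03 to 0.53 for the 6 raised piRNA genes. VAD replicate 2 was the highest array for all 9 Sertoli markers, but for 0 of the 4 meiotic prophase genes and 0 of the 6 piRNA genes. A small rise can pass the test only where the spread is small, so the ranges of called genes follow in part from the call. Over all 472 raised genes the highest array was VAD replicate 1, 2 and 3 in 128, 165 and 179 cases, and the median range was 0.34.

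**Figure D3:**
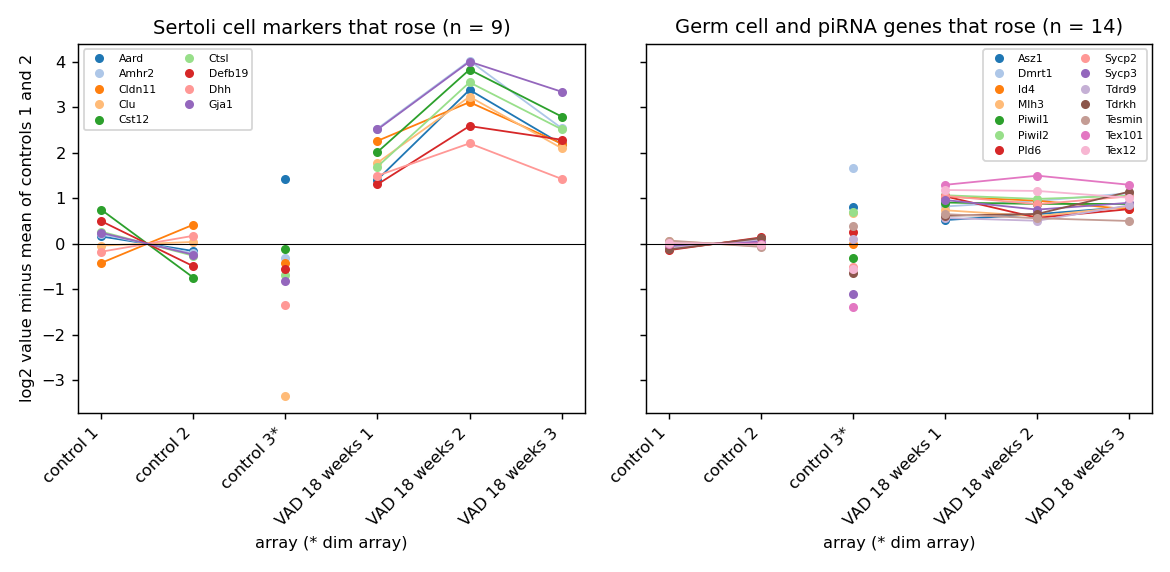
Log2 signal minus the mean of control replicates 1 and 2 (vertical) on each array (horizontal), for the 9 Sertoli markers that rose (left) and for 14 germ cell and piRNA genes that rose (right), with 1 colour a gene and lines joining the arrays of a group. The Sertoli lines peak at VAD replicate 2 and the germ cell lines are nearly flat across the VAD arrays, while control replicate 3, marked with an asterisk, scatters.

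Of 22 measured pachytene spermatocyte genes 3 rose (13.6%, against 3.47% of all named genes), namely Tex101, Piwil1 and Tesmin, a metallothionein-like protein of spermatocytes (0.57 ± 0.13), and 1 fell (4.55%, against 0.867%), Zpbp, an acrosome protein (-0.46 ± 0.10). The median was -0.19, or -0.05 on the deposited scale. Tex101 is also counted among the differentiating spermatogonia genes, and Piwil1 among the piRNA genes. Besides the representative probe set of Tesmin, 2 others were called, at 2.13 and 1.80, and 1 at 0.40 was not. The other probe set of Zpbp, at 0.18, did not pass. The calls that follow are those of the representative probe sets. Tesmin and Zpbp lost their calls without control replicate 1 (adjusted p = 0.134 and 0.142), control replicate 2 (0.199 and 0.206) and VAD replicate 2 (0.0739 and 0.0654).

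Of 27 measured spermatid genes 26 had a negative log2 fold change, against 7074 of 13616 named genes. Of the list 1 gene passed as lower (3.7%, against 0.867% of all named genes) and none as higher (against 3.47%). The median was -0.32, and -0.14 with the deposited scaling. Spaca7, a sperm acrosome protein, stood at 8.21 and 8.08 in control replicates 1 and 2 and 6.68, 7.13 and 7.04 at 18 weeks, a fall of 1.20 ± 0.17 (limma adjusted p = 0.00545, and 0.068 without control replicate 1). Control replicate 3, at 4.53, lay below every VAD array, so that the value with all controls was 0.01. Prm2, a protamine, was at -0.88 ± 0.37, Crem, the regulator of spermatid transcription, at -0.43 ± 0.14 and Tnp1, a transition protein, at 0.00 ± 0.25, and none passed. The summed spermatid signal was 30259, 23481 and 15211 in the controls and 16298, 24647 and 24134 at 18 weeks, so VAD replicate 1 lay below the others and the groups overlapped.

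Among 20 measured genes for the uptake, storage and metabolism of retinoids none passed, against 3.47% higher and 0.867% lower of all named genes. Of their values 12 were positive, against 6542 of 13616 over all named genes, and the median was 0.23. All VAD arrays lay above all controls for 6 of these genes and below for 1, against 11.8% and 8.21% of all named genes. Changes of 1 log2 unit were mostly missed by this fit in data simulated with 200 changed probe sets, a setting that need not hold here. Aldh1a2, which makes retinoic acid in germ cells, stood at 9.15, 9.21 and 9.62 in the controls and 9.39, 9.35 and 9.53 at 18 weeks (0.24 ± 0.12), and Aldh1a1, its Sertoli counterpart, at 7.22, 7.46 and 5.05 against 6.89, 9.06 and 8.69 (0.88 ± 0.47). Lrat, which stores retinol as esters, was at -0.13 ± 0.34, and Cyp26a1, which clears retinoic acid, at 0.21 ± 0.68. The other probe set of Lrat was at 1.31 and did not pass (limma adjusted p = 0.118). Fabp5, a carrier of fatty acids and retinoic acid, was at 1.19 ± 0.35 and Rdh14, a retinol dehydrogenase, at 0.70 ± 0.19, both above all controls without passing (limma adjusted p = 0.0882 and 0.0622). Adh5, an alcohol dehydrogenase, was at 0.87 ± 0.32 and Dhrs3, a retinal reductase, at -0.72 ± 0.26, likewise without passing.

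Rarres1 was the sole called member of 8 measured genes induced by retinoic acid (12.5% higher, against 3.47% of all named genes). It stood at 2.35, 2.46 and 2.08 in the controls and 3.78, 4.70 and 4.57 at 18 weeks, a rise of 1.94 ± 0.37 (limma adjusted p = 0.019, and 0.0988, 0.0695 and 0.0593 without control replicate 1, control replicate 2 and VAD replicate 2). Its list had a median of 0.04. Of the retinoid receptors and cofactors 10% were called higher and 10% lower, each 1 gene, against 3.47% and 0.867% of all named genes. Of 10 receptors and cofactors, Ncoa2, a nuclear receptor coactivator, rose by 0.71 ± 0.17 and Nr2c1, an orphan receptor, fell by 0.60 ± 0.14, with an adjusted p of 0.047 and 0.0388 that became 0.273 and 0.182 without control replicate 1, and 0.127 and 0.189 without control replicate 2. Without VAD replicate 2 the values were 0.106 and 0.0816. Ncoa2 also lost its call without VAD replicate 1, at 0.0564. Each of these calls was made by 1 of 4 probe sets: the others were at -0.09, -0.34 and -0.94 for Ncoa2 and -0.06, 0.05 and 0.81 for Nr2c1, and none of them passed. Rarg was at 0.31 ± 0.57, and Rara, Rarb and Cyp26b1 were below the filter.

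In each of the metabolic, stress and cell cycle lists at most 1 gene was called in each direction. Of all named genes 3.47% were called higher and 0.867% lower. The shares were 5.26% and 5.26% for cholesterol synthesis, 5.26% and 0% for heat shock and the unfolded protein response, and 3.7% and 3.7% for mitosis and replication. In lists this short, 0 calls cannot be told from the shares of all genes. Of 19 cholesterol synthesis genes Dhcr7, the last enzyme of the pathway, rose by 2.18 ± 0.38, from 2.18, 2.44 and 1.93 to 3.86, 5.04 and 4.55 (limma adjusted p = 0.0144, and 0.0896 and 0.0561 without control replicate 1 and 2). Fdft1, squalene synthase, fell by 0.54 ± 0.11, and by 0.45 in its other probe set, which also passed. The first fell from 10.28 and 10.32 to between 9.68 and 9.90, while control replicate 3 stood at 8.70 (limma adjusted p = 0.0292, and 0.156, 0.161 and 0.0749 without control replicate 1, control replicate 2 and VAD replicate 2). Sqle (0.18 ± 0.17), Cyp51 (0.11 ± 0.22) and Lss (-0.10 ± 0.19) did not pass, and the median of the list was 0.11.

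Hspa8, the constitutive Hsp70 chaperone, was the sole called member of 19 heat shock and unfolded protein response genes, with a rise of 0.75 ± 0.18 (limma adjusted p = 0.0451). It lost its call with any of these 5 arrays left out, with an adjusted p of 0.0549 to 0.231. Of 19 immediate early genes 0 passed, and Fos was at 1.09 ± 0.53 with 5.54, 8.03 and 7.10 at 18 weeks. In the Bcl2 family, which decides on apoptosis, 0 of 15 passed, and Bcl2l2, a survival member needed for spermatogenesis, was at 1.65 ± 0.41 (limma adjusted p = 0.0505) with all VAD arrays above all controls. Interferon-stimulated genes had 0 of 7 called and a median of -0.19, and 0.24 with the deposited scaling.

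Ccne2, cyclin E2 of the entry into DNA replication, was the clearest change among 27 genes of mitosis and replication. It stood at 6.12, 6.54 and 4.91 in the controls and 7.95, 7.91 and 7.80 at 18 weeks, a rise of 1.56 ± 0.16 (limma adjusted p = 0.00106), and it kept its call without any of the arrays. Ccnb2, a mitotic cyclin, fell by 0.62 ± 0.14, from 10.84 and 10.82 to between 9.95 and 10.41, with control replicate 3 lower at 8.97, so that its value with all controls was 0.01. Its adjusted p of 0.0353 became 0.193 and 0.162 without control replicate 1 and 2. The median of the list was -0.04, and Mcm3, a replication helicase subunit at 0.89, had 2 of its 4 probe sets called higher, but not its representative one.

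**Figure D4:**
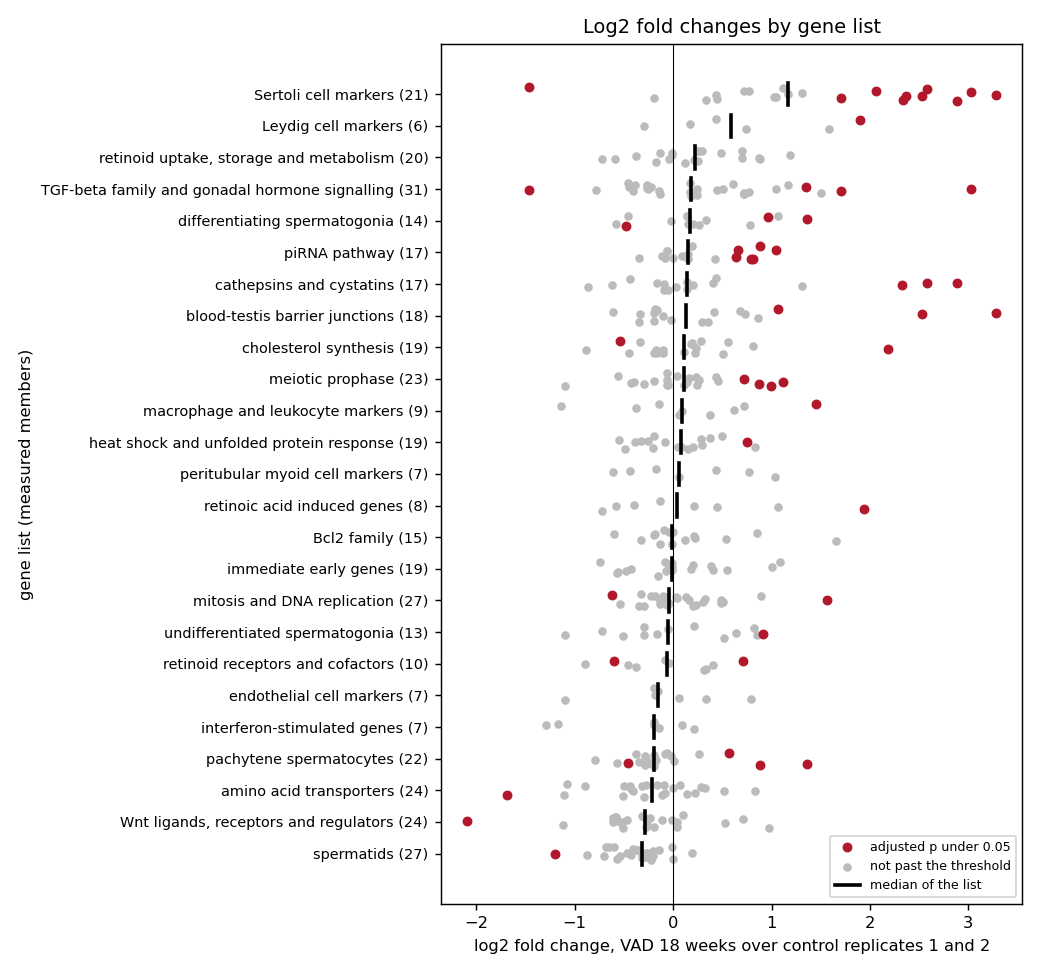
Log2 fold change of each measured gene (points) of 25 gene lists, ordered by the median (bars), with genes past the threshold in red and the number of measured genes in brackets. Sertoli cell markers have the highest median, 1.17, and spermatid genes the lowest, -0.32.

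Decreases were fewer and mostly smaller than increases. Ror2, a receptor tyrosine kinase for Wnt5a, had the largest among called genes whose arrays did not overlap between groups. Rhoq, a small GTPase named after its values were seen, was called at -2.10 ± 0.44 over control replicates 1 and 2 (limma adjusted p = 0.0267), but control replicate 3, at 1.97, lay below its VAD arrays. Ror2 stood at 4.18, 4.66 and 5.23 in the controls and 2.11, 2.59 and 2.27 at 18 weeks, so the groups did not overlap, and it fell by 2.09 ± 0.44 (limma adjusted p = 0.0284), to values near the bottom of the scale. With all controls the value was -2.36, and its adjusted p was 0.109 and 0.17 without control replicate 1 and 2. Slc1a5, a glutamine transporter, stood at 4.54, 4.22 and 5.06 against 2.99, 2.32 and 2.76, a fall of 1.69 ± 0.39 (limma adjusted p = 0.0386). Its adjusted p was 0.213 and 0.117 without control replicate 1 and 2, and 0.0728 and 0.0547 without VAD replicates 2 and 3.

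Tcl1b3, a member of the Tcl1 family of Akt coactivators, stood at 8.09, 8.38 and 12.11 in the controls and 6.98, 6.93 and 6.65 at 18 weeks. It fell by 1.38 ± 0.17 (limma adjusted p = 0.0032) and alone of the 15 largest decreases kept its call whichever array was left out. Control replicate 3 stood far above the other controls for it, and the value with all controls was -2.67 ± 1.37. Sqstm1, the autophagy receptor p62, stood at 7.93, 7.64 and 7.33 against 6.73, 6.80 and 6.63, a fall of 1.07 ± 0.16 (limma adjusted p = 0.00749, and 0.0917 without control replicate 1).

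Chac1, a glutathione-degrading enzyme induced by stress, fell by 1.04 ± 0.25, Krt8, a simple epithelial keratin, by 1.17 ± 0.25 and Col2a1, a fibrillar collagen, by 1.20 ± 0.27. The other 2 probe sets of Krt8 did not pass. The remaining members were 1700007E05Rik (-1.14), Prr22 (-1.08), Zfp296 (-0.95), D7Ertd443e (-0.92), Ap1s2 (-0.90), Elobl (-0.90), Agtr1a (-0.86), the angiotensin receptor, and Ptchd3 (-0.85). Of the 15, 1 kept its call without control replicate 1 and 2 without control replicate 2, while 13, 9 and 9 did without VAD replicates 1, 2 and 3. The adjusted p was 0.0725, 0.102 and 0.238 for Chac1, Krt8 and Col2a1 without control replicate 1, 0.258, 0.176 and 0.0977 without control replicate 2, 0.0697, 0.0653 and 0.0581 without VAD replicate 2, and 0.0796, 0.0527 and 0.0558 without VAD replicate 3. Chac1 also lost its call without VAD replicate 1, at 0.063. On the deposited scale the 15 ran from -1.75 to -0.54.

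**Figure D5:**
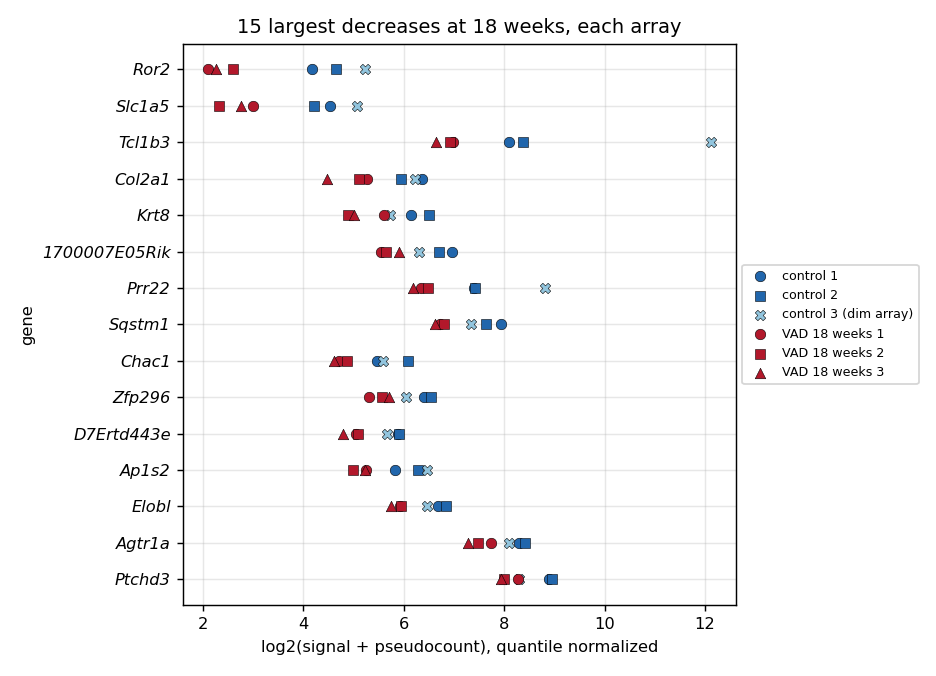
Normalized log2 signal of the 15 largest decreases on each array, with controls in blue, the dim control replicate 3 as a pale cross and VAD 18-week arrays in red. The gap between groups is widest for Ror2 and Slc1a5, and control replicate 3 stands far to the right for Tcl1b3, at 12.11.

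Of 24 measured Wnt ligands, receptors and regulators Ror2 alone fell (4.17%, against 0.867% of all named genes) and 0 rose. The list median of -0.28 was 0.13 on the deposited scale, where all genes had 0.32. Lrp6, the Wnt coreceptor, was at -1.12 ± 0.42, Sfrp4, a secreted antagonist, at -0.61 ± 0.23 and Fzd6, a receptor, at 0.53 ± 0.21, and none passed. Of 24 amino acid transporters Slc1a5 was likewise the sole called gene of the list by its representative probe set (4.17% lower, against 0.867%). The median of -0.22 was 0.20 on the deposited scale. Slc38a2, a neutral amino acid transporter, was at -1.08 ± 0.41 with 3.79, 5.49 and 5.26 at 18 weeks, so VAD replicate 1 was low, and Slc38a9, a lysosomal arginine sensor, was at 0.52 ± 0.15. Of the 3 probe sets of Slc1a2, a glutamate transporter, 1 was called lower, and the representative probe set, at -0.50 ± 0.20, was not.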

How the data were processed

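The deposited values are intensities that the authors computed per probe set with MAS5, per the submitters' processing notes, and their range shows a linear scale. Its scaling target is not given in the sources used here. The trimmed means (2% from each end) differ between arrays, so no common target was in force. Differences in brightness between arrays therefore enter any comparison made on the deposited scale.

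Signals were transformed as log2(signal + 3.256), the pseudocount being the 25th percentile of the signals of the 45037 probe sets that are not among the 64 AFFX controls, so changes of low signals are understated. All 9 arrays were quantile normalized, and the 27022 probe sets whose mean reached the 40th percentile were kept. In the platform annotation, 34945 probe sets had 1 symbol, 932 had several and 9160 had none, and 34741 of the symbols were found in a RefSeq gene table. The kept probe set with the highest mean represents a gene, those prone to cross-hybridisation last. The filter, the summed signals and the list means use levels across probe sets. Levels of different probe sets are not a measure of relative expression, so these values compare arrays and not genes.

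The test was that of limma 3.58.1 under R 4.3.3 (lmFit, eBayes with a variance trend, Benjamini-Hochberg adjusted p under 0.05), with all 9 arrays and without the dim pair, control replicate 3 and VAD 25-week replicate 3, whose trimmed means were under 0.5 of the median. In simulated data 200 of 27022 probe sets were changed, and each had the residual spread estimated from the 7 arrays. The fit of 7 arrays called 22 of 100 changes of 1 log2 unit and 58 of 100 of 2 units, with 2 false calls. The adjusted p depends on how many probe sets change. Fewer were changed than the 1078 called in the real data, so these shares need not hold there. The fit of 9 arrays called 0 and 21, with 0 false calls.

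Named genes are the 15 largest changes in each direction that passed without overlap between the groups, the up to 4 members with the smallest p in each list, and a set of fixed retinoid and spermatogonial genes. Further list members, named to show the rest of a list, were chosen after their values were seen. The comparison, the lists and the rules were all chosen with earlier results of these data known. Lists are given by counts and medians, with no set test. Promoters were matched by Entrez gene identifier, for 10949 of 13616 named genes. Alternatives in scaling, pseudocount, filter, arrays, variance trend, array weights and blocks were run. Some members of the gene lists are not reported here.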

Additional observations from a re-analysis of the deposited data

How the results depend on the processing

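With all 9 arrays limma called 0 probe sets in the main fit and under every alternative except array weights (725, of which 667 were among the 1078 called without the dim pair) and the block for the dim pair (396). Without the dim pair, limma's count of 1078 became 2228 on the deposited scale (748 shared), 663 with no filter (645 shared), 100 with no trend in the variance (95 shared) and 360 with the 25-week arrays left out of the fit (357 shared), and it ranged from 195 to 1284 with 1 array left out. Median centring, a pseudocount of 16, the 60th percentile filter and array weights moved it by less than 1.5 times. The causes were not tested. With no filter more probe sets are tested, and the fits with fewer arrays have fewer residual degrees of freedom. Leaving out the 25-week arrays also takes a pair that correlated at 0.981 out of the estimate of the spread.

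With the replicate number as a block the count was 656, of which 547 were among the 1078, and 0 with all 9 arrays. Deviations of same-numbered control and 18-week arrays from their group means correlated at -0.00472, 0.0275 and 0.075, and not every array correlated best with its own number. Control replicate 3 weighs heavily on the control deviations, so these values cannot show whether the numbers pair samples. That array correlated at 0.889 with VAD 25-week replicate 3, the other dim array of the same number.

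Among the 61 called genes named by rule, Ccnb2 and Spaca7 changed sign with all 9 arrays, to 0.01 and 0.01, and 11 of the 64 that were not called also did. Calls of named genes were lost most often in that fit, where all 61 lost theirs, 59 of them with the sign kept. Next came the fit with no trend (52). Losses were also frequent without control replicate 1 or control replicate 2, which leaves 1 control array. Low signals limit precision most for genes whose controls lie near the bottom of the scale, such as Gja1 and Ror2.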

Other observations

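The gene families here were chosen after their values were seen, so their counts are descriptions with no test. Of 19 measured Hnrnp genes, which package and splice pre-mRNA, 7 were called higher (36.8%, against 3.47% of all named genes) and 0 lower, with a median log2 fold change of 0.29, or 0.49 on the deposited scale. Hnrnpk stood at 8.80, 9.15 and 10.31 in the controls and 10.42, 10.35 and 10.66 at 18 weeks, a rise of 1.51 ± 0.14 (SE; limma adjusted p = 0.00067), and all VAD arrays lay above all controls. Hnrnph1 (0.88 ± 0.17), Hnrnpul2 (0.74 ± 0.17), Hnrnpdl (0.68 ± 0.14), Hnrnpm (0.67 ± 0.12), Hnrnph3 (0.59 ± 0.14) and Hnrnpll (0.57 ± 0.13) made up the rest. The count was 1 without control replicate 1 or control replicate 2, 3 without VAD replicate 2, 2 with median centring, 4 on the deposited scale and 0 with all 9 arrays.

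Of 10 measured Srsf genes, the serine- and arginine-rich splicing factors, 3 were called higher (30%) and 0 lower. Srsf1 stood at 8.95, 9.0 and 7.94 in the controls and 10.17, 10.16 and 9.95 at 18 weeks, a rise of 1.12 ± 0.12 (limma adjusted p = 0.00151), and Srsf3 (0.76 ± 0.12) and Srsf6 (0.73 ± 0.13) also rose. The Srsf count was 1 without control replicate 1, 2 without control replicate 2, 1 with median centring and 0 with all 9 arrays. Among ceramide synthases, which make the backbone of sphingolipids, 3 of 4 measured genes were called higher, Cers3, the testis and skin enzyme for very long chains, by 0.76 ± 0.13, Cers5 by 1.42 ± 0.18 and Cers6 by 2.01 ± 0.38. Cers5 stood at 5.64, 5.66 and 6.02 in the controls and 6.80, 7.28 and 7.12 at 18 weeks. The ceramide synthase count was 1 without control replicate 1, 2 without control replicate 2 or VAD replicate 2, and 0 with all 9 arrays.

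Proteasome subunits had 3 of 37 called higher (8.11%), Psma2, Psma8 and Psmd14, and 0 in limma without control replicate 1, without control replicate 2, with median centring, on the deposited scale or with all 9 arrays. Genes that still carry RIKEN clone names, 819 of them, had 12 called higher (1.47%) and 13 lower (1.59%), against 3.47% and 0.867% of all named genes.

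Of 409 measured X-linked genes 19 were called higher (4.65%), within the range of 1.86% to 5.11% of the single autosomes, and their median log2 fold change was -0.07, against -0.02 for autosomal genes. The share among all autosomal genes was 3.46%. The X-linked and autosomal shares were 11.9% and 8.24% on the deposited scale, 6.22% and 2.95% with each array centred on its median, 7.58% and 3.90% without VAD replicate 1, 1.71% and 0.611% without control replicate 1, and both 0% with all 9 arrays.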
